A study of Homo sapiens with 21 samples.

Results

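The TGF-beta and BMP pathway genes were taken as 42 genes that encode ligands, their extracellular antagonists and carriers, receptors, SMAD proteins and SMAD co-repressors. Every accessible site that carried the name of a member as its nearest gene in the deposited annotation was counted as a site of that gene, which gave 1166 of 367900 sites, and 1130 of them passed the low-count filter (36 did not). Sites were found for 40 of the 42 genes, while TGFB3 and ACVR2B were nearest gene to no site. A site named for a gene lay closest to its transcription start site (TSS) and need not regulate it.

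Chromatin accessibility was measured by ATAC-seq, which counts insertions of adapter-loaded Tn5 transposase in open DNA, in SK-N-BE(2), an established neuroblastoma cell line. Cells were collected 72 h after transduction with lentivirus that encoded short hairpin RNAs (shRNAs) against ARID1A or ARID1B, subunits of the BAF chromatin remodeller. The 7 groups of 3 libraries were Control, the ARID1A shRNAs shARID1A.2 and shARID1A.4, the ARID1B shRNAs shARID1B.2 and shARID1B.3, and the combinations shARID1A/B.2.3 and shARID1A/B.4.2, whose names read as shARID1A.2 with shARID1B.3 and shARID1A.4 with shARID1B.2. The labels gave the same medium and the same transduction protocol for all groups, Control included, and did not say which hairpin the Control cells received. The deposited counts named the Control group NSC, and the paper compared its RNA-seq groups with a non-silencing control. The design text described biological triplicates, so that p-values measure the spread between 3 transduced cultures of 1 cell line. The amount of ARID1A or ARID1B transcript and protein cannot be read from these libraries. In such bulk material, a site open in fewer cells and a site less open in every cell cannot be told apart.

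In this pathway, dimeric ligands bring together type II and type I receptor kinases, and the type I receptor phosphorylates the receptor SMADs, which enter the nucleus with SMAD4 and bind DNA. TGF-beta and activin ligands act mainly through SMAD2 and SMAD3, and BMP ligands act mainly through SMAD1, SMAD5 and SMAD9, while SMAD6 and SMAD7 inhibit the signal. BMPs direct neural crest cells towards the sympathetic lineage from which neuroblastoma arises, and TGF-beta signalling is known for its part in mesenchymal transition and invasion.

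Libraries held 16140029 to 44472230 reads in sites. CPM, the reads of a site scaled to a fixed total per library, were taken relative to TMM-scaled library totals, and sites with an adjusted p (false discovery rate, FDR) under 0.01 in edgeR's quasi-likelihood test over all 357029 tested sites are said to have closed where lower and opened where higher. Combined silencing stands for the mean of both combinations against Control. Promoter sites took 20.0% to 20.6% of the reads in Control libraries, 20.9% to 24.1% with a single shRNA and 23.4% to 25.1% in the combinations, and the opened sites are therefore also given with a scaling on promoter sites. The adrenergic markers HAND2, PHOX2A, ISL1, GATA3 and DBH had 10.3 to 43.9 CPM in Control at the tested site nearest their TSS, whereas the values were 2.5 for MYCN, 2.43 for TH, 1.26 for PTPRC, 0.616 for KRT5 and 0.178 for ALB. For HAND2, PHOX2A, GATA3, DBH and TH that site was within 1000 bases of the TSS. It lay at -5125 bases for ISL1, -12728 for MYCN, -2490 for PTPRC, 13164 for KRT5 and -8831 for ALB. The values were therefore not taken at like positions. Sites near EPCAM and CD3E, genes of other lineages, had 6.62 and 4.30 CPM.

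The 3 sites with the largest falls and the 3 with the largest rises under combined silencing, by the rule for named sites, are shown as the 300 bases at their middle (GRCh38, plus strand), since they are the regions on which the values below rest. Capitals mark matches on either strand to any of 6 motifs, none of which contains another. The letters searched for AP-1 factors were TGANTCA. For SMAD proteins the palindrome GTCTAGAC, the shorter box CAGACA and, for sites of BMP type, GGCGCC were searched. The E-box of bHLH factors was searched as CATCTG, and the sites of GATA factors were searched as AGATAA. The closed windows were from an intergenic site 183868 bases downstream of the TSS of TGFB2 (chr1:218529768-218530067), intron 6 of 17 of TGFBR3 (chr1:91731771-91732070) and intron 1 of 6 of BMP7 (chr20:57241891-57242190). The opened windows were from an intergenic site 131287 bases upstream of the TSS of BMP2 (chr20:6636662-6636961), a site annotated as a promoter of SMAD2 (chr18:47930746-47931045) and an intergenic site 32685 bases upstream of the TSS of INHBB (chr2:120313309-120313608).
TGFB2, closed: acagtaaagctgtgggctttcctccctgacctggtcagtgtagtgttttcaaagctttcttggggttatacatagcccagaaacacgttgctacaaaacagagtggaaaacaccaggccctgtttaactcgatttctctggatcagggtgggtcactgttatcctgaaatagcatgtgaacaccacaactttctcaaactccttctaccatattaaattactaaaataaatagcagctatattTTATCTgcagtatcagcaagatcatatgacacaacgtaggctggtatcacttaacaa
TGFBR3, closed: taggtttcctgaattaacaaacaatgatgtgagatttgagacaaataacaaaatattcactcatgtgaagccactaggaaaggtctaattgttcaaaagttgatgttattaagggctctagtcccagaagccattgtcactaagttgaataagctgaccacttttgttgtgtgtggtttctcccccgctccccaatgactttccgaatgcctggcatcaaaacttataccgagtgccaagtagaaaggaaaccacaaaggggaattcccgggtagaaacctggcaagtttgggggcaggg
BMP7, closed: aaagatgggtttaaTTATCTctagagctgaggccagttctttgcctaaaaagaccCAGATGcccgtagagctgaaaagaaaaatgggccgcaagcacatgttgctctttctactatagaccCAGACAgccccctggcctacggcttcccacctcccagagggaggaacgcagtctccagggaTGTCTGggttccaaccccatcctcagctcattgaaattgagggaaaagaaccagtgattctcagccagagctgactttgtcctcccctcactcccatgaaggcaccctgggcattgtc
BMP2, opened: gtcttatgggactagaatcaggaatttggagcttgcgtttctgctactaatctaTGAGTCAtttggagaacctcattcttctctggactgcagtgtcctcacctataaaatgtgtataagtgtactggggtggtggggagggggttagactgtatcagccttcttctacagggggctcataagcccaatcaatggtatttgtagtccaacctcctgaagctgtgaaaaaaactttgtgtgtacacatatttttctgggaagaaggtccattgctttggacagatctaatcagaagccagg
SMAD2, opened: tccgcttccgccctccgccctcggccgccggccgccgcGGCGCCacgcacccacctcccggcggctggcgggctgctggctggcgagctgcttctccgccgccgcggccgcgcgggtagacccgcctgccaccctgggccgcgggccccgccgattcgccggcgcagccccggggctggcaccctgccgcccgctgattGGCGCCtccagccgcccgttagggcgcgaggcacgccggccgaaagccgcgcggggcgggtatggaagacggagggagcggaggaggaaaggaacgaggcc
INHBB, opened: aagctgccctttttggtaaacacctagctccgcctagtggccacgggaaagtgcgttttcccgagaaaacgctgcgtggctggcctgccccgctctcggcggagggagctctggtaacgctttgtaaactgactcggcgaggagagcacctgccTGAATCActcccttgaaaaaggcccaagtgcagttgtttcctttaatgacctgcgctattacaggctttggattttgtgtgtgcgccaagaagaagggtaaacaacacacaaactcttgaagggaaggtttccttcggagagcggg

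The TGFB2 window held 1 GATA match and the BMP7 window held 2 SMAD boxes, 1 E-box and 1 GATA match, whereas the TGFBR3 window held no match. Single AP-1 matches lay in the BMP2 and INHBB windows. The SMAD2 promoter window, with a GC content of 79.7%, held 2 GGCGCC matches. A match describes letters only.

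Combined silencing closed 100 member sites at 29 genes and opened 30 at 18 genes. The closed share was 8.85%, against 10.3% of all tested sites, and the opened share was 2.65%, against 3.43%, so that neither share was above that of all sites. The median log2 change was 0.05 over the 1130 member sites and 0.03 over all tested sites. Closed member sites fell by a median of 0.90 on the log2 scale (range -1.86 to -0.31), and at 40 of them the fall was 1 or more. Opened sites had a smaller median change of 0.50 (range 0.26 to 1.38), with 3 past 1. In 84 of the 100 closed sites every combination library was below every Control library (83.6% of all closed sites), and in 24 of the 30 opened sites every one was above (80%, against 64.3% of all opened sites). With each combination alone, 64 of the closed sites (59.4% of all closed sites) and 11 of the opened ones (36.7%, against 29.7%) were called in the same direction.

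Closed sites were distal and opened sites were partly at promoters. Of the 22 tested member sites in the promoter class, 9 opened (40.9%, against 33.4% of all promoter sites) and 0 closed (4.24% of all promoter sites did). Of the 446 intron sites, 59 closed (13.2%, against 12% of all intron sites), and of the 625 intergenic sites, 39 closed (6.24%, against 9.39%). By distance, 0 of the 30 member sites within 1000 bases of the TSS closed (6 on the promoter scaling described below), and 7 closed of the 73 between 1000 and 10000 bases (9.59%, against 10.8% of all such sites). Most closed sites, 69 of 609, were between 10000 and 100000 bases away (11.3%, against 11.2%), and 24 closed of the 418 beyond (5.74%, against 9.63%). Closed sites lay a median of 57930 bases from the TSS and opened sites 15902.5 bases. Closed sites were less open than opened sites, with a median of 2.33 CPM over Control and combination libraries against 13.1 CPM. The combination libraries, whose values helped make the calls, are part of both medians, and Control alone was not used.

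The opened calls depended on the scaling. When library scaling factors were taken from promoter sites alone, the median log2 change of all sites moved from 0.03 to -0.20, and the member calls went from 100 closed and 30 opened to 165 closed (14.6%, against 15.9% of all sites on that scaling) and 7 opened (0.619%, against 0.729%). All 100 closed sites were also closed on that scaling. The 7 sites opened on both scalings were those of SMAD2, ACVR1, TGFBR1, BMP2, INHBB, INHBA and SKI that are described further on, and the 8 opened start sites that lost the call kept a positive change. Leaving out Control replicate 3 left 17 opened sites.

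**Figure D1:**
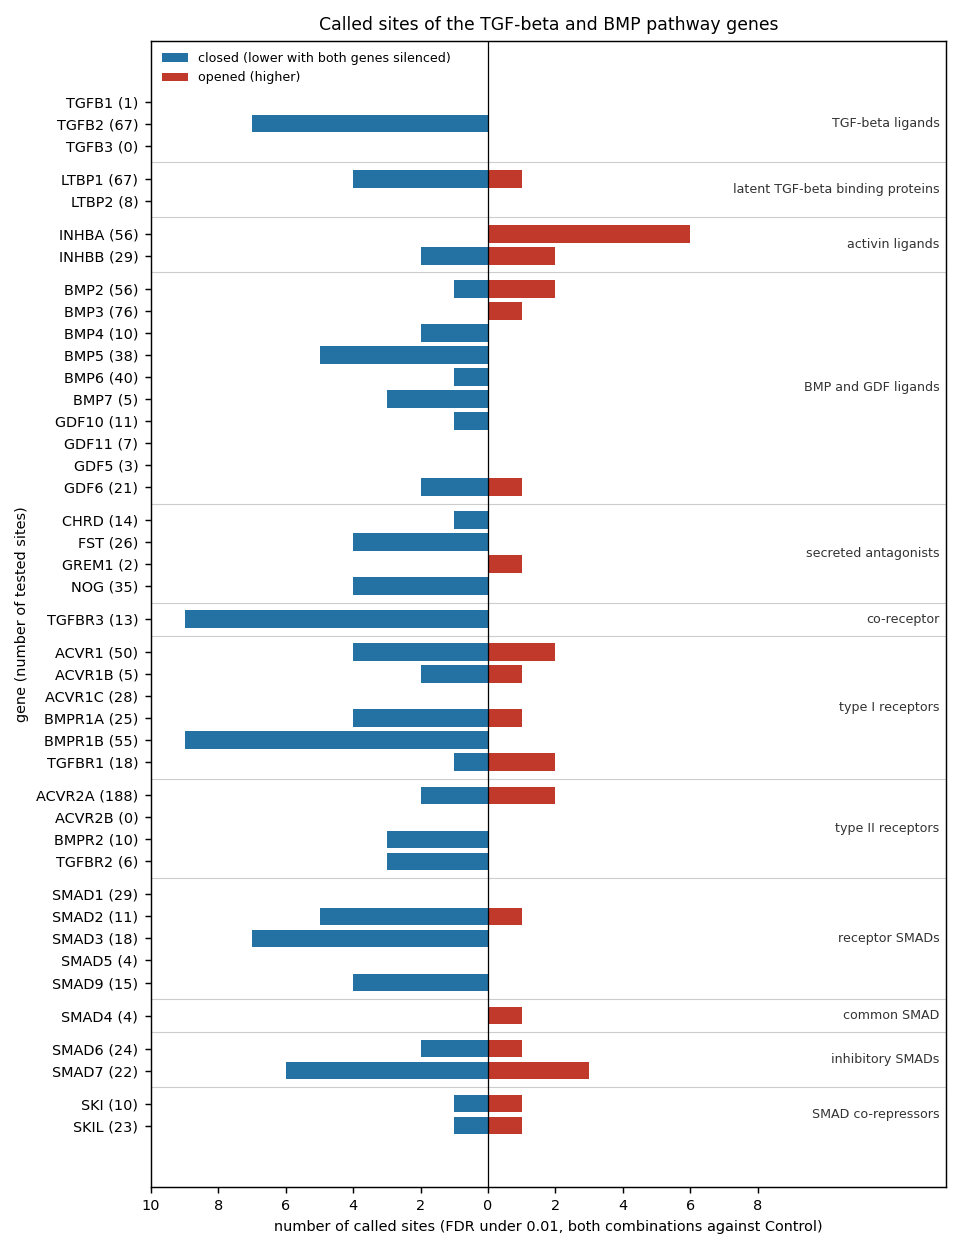
Number of sites closed (bars to the left) and opened (bars to the right) under combined silencing for each of the 42 genes, ordered by role, with the number of tested sites beside each name. TGFBR3 and BMPR1B had 9 closed sites each, SMAD3 and TGFB2 had 7, and INHBA had 6 opened and 0 closed sites.

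TGF-beta ligands were represented by TGFB2, a secreted TGF-beta ligand with 67 tested sites, of which 7 closed and 0 opened. Counts by gene or role, here and below, stand beside 10.3% closed and 3.43% opened of all tested sites. They were not tested against these shares. The largest fall among member sites was at chr1:218529505-218530330, where the Control libraries had 2.74, 3.12 and 2.89 CPM, the shARID1A/B.2.3 libraries 0.821, 0.953 and 0.615 and the shARID1A/B.4.2 libraries 0.717, 0.736 and 0.881. The log2 change was -1.86 (SE 0.18 and edgeR FDR 3.5e-15). Every combination library was below every Control library, but the rule that named the sites required this. The same holds at the other named falls and rises. Libraries with a single shRNA were at 0.877 to 2.12 CPM, all below Control and overlapping the combinations at the lower end, and both ARID1A silencing (-1.24) and ARID1B silencing (-1.06) lowered the site. A second intergenic TGFB2 site, chr1:218671506-218672030, had 2.36, 2.88 and 1.92 CPM in Control and 0.528 to 0.928 in the combinations, a log2 change of -1.59 (SE 0.19 and edgeR FDR 2.4e-11). There the single shRNAs gave 0.847, 1.04, 1.63 and 0.732 CPM on average for shARID1A.2, shARID1A.4, shARID1B.2 and shARID1B.3, and the further change from single to combined silencing, -0.36 (SE 0.16, edgeR FDR 0.152), was not called. The other closed TGFB2 sites had log2 changes of -1.57 to -0.45, and one of them lay over exon 3 of 8. TGFB1 had 1 tested site, with 4.94 CPM in Control and a log2 change of 0.15 (SE 0.13 and edgeR FDR 0.455). LTBP1, which tethers latent TGF-beta to the matrix, had 4 closed and 1 opened of 67 sites, and the 8 sites of LTBP2 were not called under combined silencing.

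The activin ligand INHBA had 6 opened and 0 closed of 56 tested sites, and 1 of the 6 stayed opened on the promoter scaling, while INHBB had 2 opened and 2 closed of 29. At the INHBA site chr7:41940537-41943681, 239001 bases upstream of the TSS, Control had 14.1, 12.5 and 14.0 CPM and the combinations had 18.2, 21.1 and 18.8 (shARID1A/B.2.3) and 20.2, 19.1 and 18.3 (shARID1A/B.4.2). The groups did not overlap, as the naming rule required, and the log2 change was 0.52 (SE 0.09 and edgeR FDR 6.6e-07). The INHBB site chr2:120312755-120314161, whose window is printed above, had 5.24, 5.01 and 7.02 CPM in Control, 8.34, 8.06 and 8.18 in shARID1A/B.2.3 and 9.32, 9.99 and 9.0 in shARID1A/B.4.2, a log2 change of 0.60 (SE 0.11 and edgeR FDR 2.7e-06). ARID1A silencing opened this INHBB site (0.47, edgeR FDR 8.0e-04), and ARID1B silencing gave 0.31 (edgeR FDR 0.0599). The direct difference between ARID1A and ARID1B shRNAs, 0.16 (SE 0.08, edgeR FDR 0.295), was not called. Both sites stayed opened on the promoter scaling, at log2 changes of 0.29 for INHBA and 0.37 for INHBB.

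BMP and GDF ligands, which signal for differentiation in the neural crest, had 15 closed and 4 opened of 267 tested sites. Of all tested sites, 10.3% closed and 3.43% opened. The strongest falls among these ligands at sites of at least 1 CPM were at BMP7 and BMP4. BMP7 had 3 closed of 5 tested sites, all 3 in intron 1 of 6. The site at chr20:57241557-57242524 had 3.56, 2.18 and 4.13 CPM in Control, 1.02, 0.604 and 1.01 in shARID1A/B.2.3 and 0.896, 1.20 and 0.928 in shARID1A/B.4.2, a log2 change of -1.83 (SE 0.19 and edgeR FDR 2.4e-13). Control replicate 2 was the lowest Control library there and was still above all combination libraries, as the naming rule required. Its neighbour chr20:57243738-57245244 had 8.61, 6.70 and 7.66 CPM in Control, 3.18, 2.58 and 3.30 in shARID1A/B.2.3 and 1.75, 3.22 and 2.23 in shARID1A/B.4.2, at -1.52 (SE 0.12 and edgeR FDR 8.7e-19). The neighbour differed by the gene silenced, being at 2.11 to 4.21 CPM with ARID1A shRNAs and at 5.45 to 6.60 with ARID1B shRNAs. BMP4 had 2 closed of 10 sites, both intergenic and far upstream. At chr14:54146170-54147787 Control had 5.10, 5.84 and 4.37 CPM, shARID1A/B.2.3 had 1.67, 1.44 and 1.58 and shARID1A/B.4.2 had 1.97, 1.93 and 1.81, a log2 change of -1.56 (SE 0.13 and edgeR FDR 2.0e-17). Libraries of shARID1B.2 were at 5.35, 6.09 and 5.61 CPM, within or above the Control range, whereas those of shARID1B.3 were at 3.10, 3.47 and 3.19 and called lower (-0.64, SE 0.14 and edgeR FDR 3.1e-04). GDF10 and BMP6 each had 1 closed site (-1.11 and -0.90), BMP5 had 5 of 38 (-1.72 to -0.48), and GDF6 had 2 closed and 1 opened of 21.

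Rises among BMP ligands were at BMP2 and BMP3. The intergenic BMP2 site chr20:6636223-6637399 had 1.68, 1.44 and 1.68 CPM in Control, 2.20, 2.65 and 3.03 in shARID1A/B.2.3 and 2.51, 2.44 and 2.64 in shARID1A/B.4.2, a log2 change of 0.68 (SE 0.17 and edgeR FDR 9.1e-04), which was lost on the promoter scaling (0.45, edgeR FDR 0.056). A closed site of BMP2 lay close by. At chr20:6631839-6632787 the mean was 2.99 CPM in Control and 1.35 and 1.45 in the combinations, a log2 change of -1.08 (SE 0.16 and edgeR FDR 7.1e-08). The start site of BMP2 opened as well and is given with the other start sites. Secreted antagonists of BMPs and activins had 9 closed and 1 opened of 77 sites, beside 10.3% and 3.43% of all tested sites. FST, which encodes the activin antagonist follistatin, had 4 closed of 26, the largest fall at chr5:53342430-53343902 with 3.29 ± 0.185 CPM in Control, 1.44 ± 0.301 in shARID1A/B.2.3 and 1.34 ± 0.208 in shARID1A/B.4.2 (mean ± SD, n = 3), a log2 change of -1.22 (SE 0.15 and edgeR FDR 3.2e-10). NOG, which encodes the BMP antagonist noggin, had 4 closed of 35 sites, all downstream of its TSS, and the largest was at chr17:56597515-56597910, at -0.85 (SE 0.15 and edgeR FDR 4.4e-06). CHRD (chordin) had 1 closed of 14 sites.

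The co-receptor TGFBR3 (betaglycan), which presents TGF-beta ligands to TGFBR2, had the highest closed share of any member with more than 5 tested sites, 9 of 13. All 9 lay in introns of TGFBR3. In intron 6 of 17, at chr1:91731067-91732773, Control had 9.58, 8.96 and 8.34 CPM, shARID1A/B.2.3 had 2.30, 2.16 and 1.80 and shARID1A/B.4.2 had 2.51, 3.13 and 3.15, a log2 change of -1.84 (SE 0.12 and edgeR FDR 1.4e-24). With ARID1A shRNAs the libraries were at 1.82 to 4.39 CPM and with ARID1B shRNAs at 4.85 to 7.64, so that every ARID1A-silenced library was below every ARID1B-silenced one. The other 8 closed TGFBR3 sites had log2 changes of -1.59 to -0.89. The site at the TSS of TGFBR3 had 21.2 ± 0.803 CPM in Control, 21.6 ± 0.473 in shARID1A/B.2.3 and 23.1 ± 0.394 in shARID1A/B.4.2 (mean ± SD, n = 3), and its log2 change of 0.08 (SE 0.08 and edgeR FDR 0.569) was not called.

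Among type II receptors, TGFBR2, the TGF-beta receptor kinase, had 3 closed of 6 sites, in introns 2, 5 and 8 of 8 and with log2 changes of -1.52, -1.01 and -0.71. At the intron 2 site chr3:30638729-30639263, Control had 1.06, 1.23 and 1.40 CPM and the combinations 0.220 to 0.649, with no overlap. Over its TSS, TGFBR2 had 8.38 ± 0.454 CPM in Control, 6.0 ± 0.435 in shARID1A/B.2.3 and 7.37 ± 0.309 in shARID1A/B.4.2 (mean ± SD, n = 3), and the log2 change of -0.33 (SE 0.10 and edgeR FDR 0.0112) narrowly missed the threshold. BMPR2, the type II receptor for BMPs, had 3 closed of 10 sites, all intronic (-1.33 to -0.66). ACVR2A, a receptor for activins, had 188 tested sites, the most of any member, and 2 of them closed and 2 opened.

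Type I receptors had 20 closed and 6 opened of 181 sites, beside 10.3% closed and 3.43% opened of all tested sites. BMPR1B, a BMP receptor kinase, held 9 of the closed ones among its 55. In its intron 1 of 10, at chr4:95002063-95002641, Control had 5.58, 4.56 and 4.25 CPM, shARID1A/B.2.3 had 1.28, 1.67 and 1.41 and shARID1A/B.4.2 had 1.39, 1.38 and 1.53. All 6 combination libraries were below the Control libraries, as the naming rule required, at a log2 change of -1.71 (SE 0.15 and edgeR FDR 1.2e-17). The libraries with a single shRNA were at 1.68 to 3.10 CPM. BMPR1A had 4 closed of 25 (-1.38 to -0.82), ACVR1 had 4 closed and 2 opened of 50, and TGFBR1, the type I receptor for TGF-beta, had 1 closed and 2 opened of 18. The 28 sites of ACVR1C were not called (-0.65 to 0.76). A site annotated as a promoter of ACVR1, chr2:157875020-157877120, which lay 57699 bases upstream of the TSS that the annotation measured from, had 48.8, 57.9 and 52.2 CPM in Control, 68.3, 82.0 and 64.4 in shARID1A/B.2.3 and 76.1, 77.2 and 72.7 in shARID1A/B.4.2, a log2 change of 0.47 (SE 0.08 and edgeR FDR 4.3e-07). It stayed opened on the promoter scaling, at 0.24 (edgeR FDR 0.0047).

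**Figure D2:**
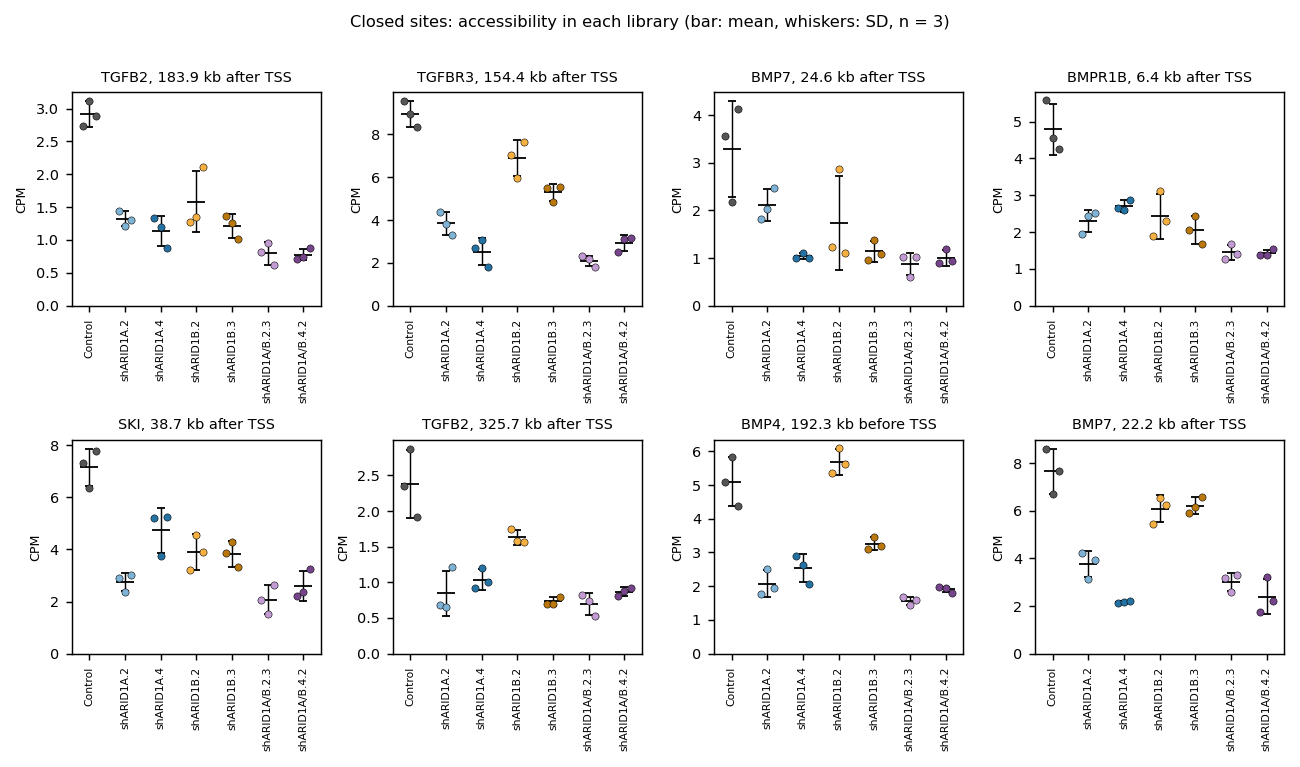
CPM in each of the 21 libraries at the 8 sites that the naming rule (called with each combination, at least 1 CPM, no overlap with Control, at most 2 sites per gene) ranks first by fall, with the mean and SD of 3 libraries per group and axes from 0. By that rule the 6 combination libraries lie below the 3 Control libraries at all 8 sites. The shARID1B.2 libraries lie close to Control at the BMP4 site.

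SMAD genes closed in introns and at distal sites. SMAD3, which carries the TGF-beta and activin signal, had 7 closed and 0 opened of 18 sites. In intron 8 of 8, at chr15:67187113-67189919, Control had 9.29, 5.96 and 9.86 CPM, shARID1A/B.2.3 had 3.22, 2.60 and 2.77 and shARID1A/B.4.2 had 4.61, 4.37 and 4.17, a log2 change of -1.24 (SE 0.12 and edgeR FDR 4.3e-15). The other 6 had log2 changes of -1.25 to -0.53. SMAD3 had no called site within 1000 bases of its TSS, but its start site, over exon 2 of 9, had only 0.400 CPM in Control. SMAD2, its closest relative, had 5 closed and 1 opened of 11 sites. The opened site, chr18:47929958-47931832, annotated as a SMAD2 promoter and printed above, had 20.9, 19.4 and 20.8 CPM in Control, 32.6, 29.2 and 29.4 in shARID1A/B.2.3 and 30.6, 34.8 and 33.6 in shARID1A/B.4.2. Every combination library was above every Control library, as the naming rule required, at 0.64 (SE 0.09 and edgeR FDR 1.8e-09). On the promoter scaling the change was 0.40 (edgeR FDR 8.9e-07). SMAD9, a BMP receptor SMAD, had 4 closed of 15 sites, all in intron 1 of 4 (-0.97 to -0.55), whereas the 29 sites of SMAD1 and the 4 of SMAD5 were not called.

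The inhibitory SMAD7, which is induced by TGF-beta and blocks its receptors, had 6 closed and 3 opened of 22 sites. The opened sites were at 1592 bases upstream and 1116 bases downstream of the TSS and at 25141 bases upstream (0.42 to 0.53), and the closed ones were 18156 to 108992 bases from the TSS on either side (-1.25 to -0.42). At chr18:48901533-48902791 Control had 6.45, 4.11 and 5.93 CPM, shARID1A/B.2.3 had 2.40, 2.00 and 2.90 and shARID1A/B.4.2 had 3.32, 3.08 and 3.34, a log2 change of -0.98 (SE 0.13 and edgeR FDR 1.3e-09). The shARID1A.2, shARID1A.4, shARID1B.2 and shARID1B.3 libraries were at 3.85 to 5.64 CPM, and neither ARID1A (-0.28, edgeR FDR 0.162) nor ARID1B silencing (-0.29, edgeR FDR 0.156) changed the site by the threshold. SMAD6 had 2 closed and 1 opened of 24 sites, and SMAD4, the partner of all receptor SMADs, had 1 opened of 4.

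SKI and SKIL encode co-repressors that bind SMAD complexes. SKI fell at chr1:2278321-2279988 in its intron 1 of 6, where Control had 7.31, 6.37 and 7.78 CPM, shARID1A/B.2.3 had 2.07, 1.51 and 2.64 and shARID1A/B.4.2 had 2.20, 2.35 and 3.25, a log2 change of -1.65 (SE 0.13 and edgeR FDR 3.4e-19). Libraries with a single shRNA were at 2.36 to 5.26 CPM. It rose at chr1:2227294-2228083, 12814 bases upstream of the TSS, from 12.5, 10.8 and 13.8 CPM in Control to 17.8, 15.3 and 16.2 in shARID1A/B.2.3 and 19.4, 18.6 and 19.0 in shARID1A/B.4.2, a log2 change of 0.51 (SE 0.09 and edgeR FDR 4.5e-06) that was 0.28 on the promoter scaling and still called. SKIL had 1 closed and 1 opened of 23 sites.

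**Figure D3:**
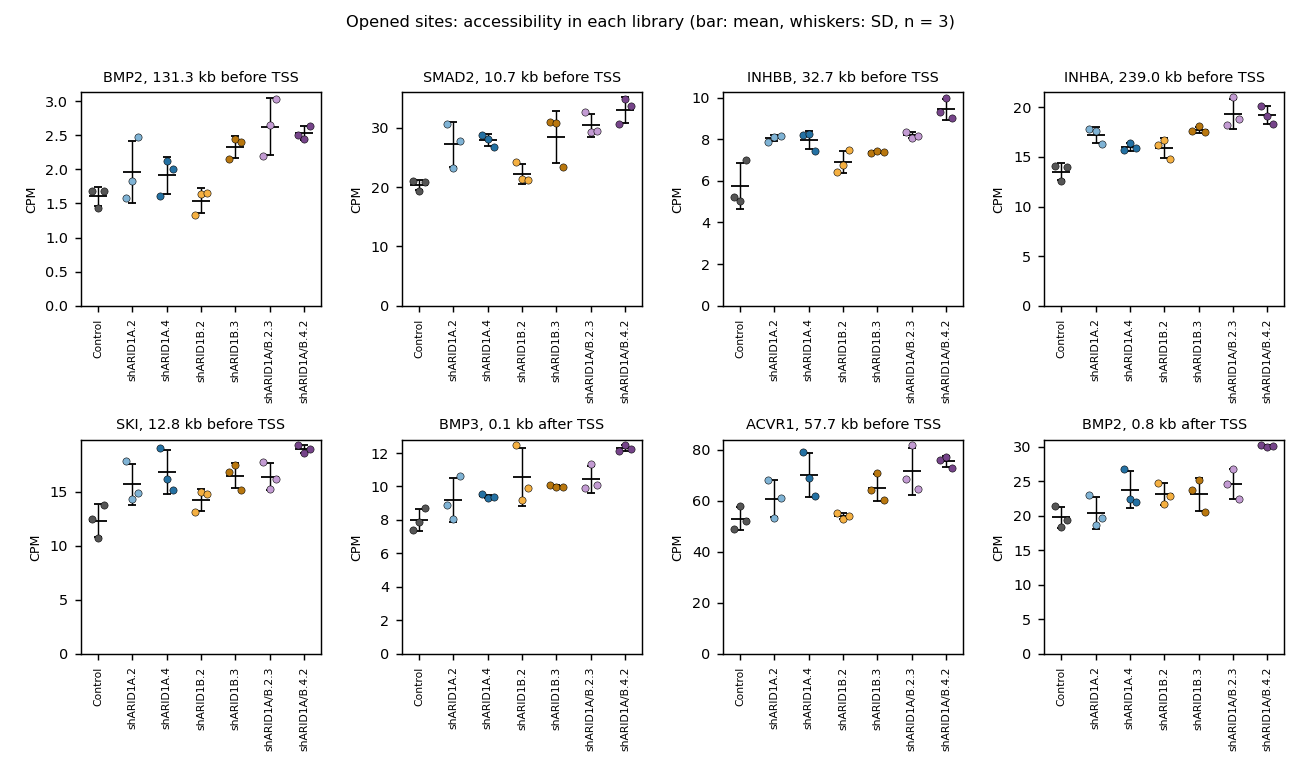
CPM in each of the 21 libraries at the 8 sites that the naming rule (called with each combination, at least 1 CPM, no overlap with Control, at most 2 sites per gene) ranks first by rise, with the mean and SD of 3 libraries per group and axes from 0. By that rule the 6 combination libraries lie above the 3 Control libraries at all 8 sites. The log2 changes, 0.47 to 0.68, are smaller than the falls. Opened sites outside the rule reached 1.38.

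Start sites were those within 1000 bases of the TSS that the annotation measured from, and 30 of the 42 genes had one. The opened sites annotated as promoters of ACVR1 and SMAD2 lay 57699 and 10726 bases from that TSS and were not counted here. The start sites of SMAD9, SMAD3, ACVR1 and BMP5 had a mean of 0.241, 0.400, 0.942 and 0.993 CPM in Control. Such depths limit what could be called. Of the 30 start sites, 10 opened (33.3%) and 0 closed, against 32.1% opened and 3.72% closed of the 16874 start sites of all genes. On the promoter scaling 2 opened and 6 closed, against 7.59% opened and 10.2% closed of all start sites, and the 6 were those of BMP4, BMPR1B, CHRD, LTBP1, SKI and TGFBR2 (-0.57 to -0.22). The 10 belonged to the type I receptors TGFBR1, BMPR1A and ACVR1B, the type II receptor ACVR2A, the ligands BMP2, BMP3 and INHBB, SMAD4, SMAD6 and SKIL. At TGFBR1 (chr9:99104335-99106058) Control had 40.6, 40.1 and 39 CPM, shARID1A/B.2.3 had 51.3, 51.9 and 49.5 and shARID1A/B.4.2 had 60.8, 57.7 and 58.4, a log2 change of 0.46 (SE 0.08 and edgeR FDR 8.7e-07). The BMP2 start site chr20:6767319-6770552 had 21.4, 18.4 and 19.4 CPM in Control, 24.6, 26.8 and 22.4 in shARID1A/B.2.3 and 30.3, 29.9 and 30.1 in shARID1A/B.4.2, a log2 change of 0.47 (SE 0.08 and edgeR FDR 5.6e-06). Combination libraries were above all Control libraries at both genes, and these were the 2 of the 10 start sites that stayed opened on the promoter scaling (0.22 and 0.24).

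At the BMP3 start site, over exon 1 of 3, Control had 7.41, 7.85 and 8.74 CPM, shARID1A/B.2.3 had 9.88, 11.3 and 10.1 and shARID1A/B.4.2 had 12.1, 12.5 and 12.2, at 0.50 (SE 0.10 and edgeR FDR 4.5e-05). ACVR2A had 61.0, 64.2 and 57.2 CPM in Control, 71.2, 83.7 and 67.7 in shARID1A/B.2.3 and 77.1, 77.0 and 77.1 in shARID1A/B.4.2, at 0.32 (SE 0.07 and edgeR FDR 3.5e-04). BMPR1A had 50.9, 48.7 and 47.8 CPM in Control, 60.3, 58.9 and 56.5 in shARID1A/B.2.3 and 60.8, 61.2 and 62.3 in shARID1A/B.4.2, at 0.29 (SE 0.07 and edgeR FDR 9.8e-04). With SKIL, ACVR2A and BMPR1A had the most open start sites of the list, and every combination library was above every Control library at all 3. ACVR1B had 23.1, 18.7 and 22.6 CPM in Control, 24.8, 22.5 and 24.8 in shARID1A/B.2.3 and 28.0, 29.0 and 30.8 in shARID1A/B.4.2, at 0.30 (SE 0.08 and edgeR FDR 0.00416). INHBB had 24.2, 18.8 and 24.4 CPM in Control, 27.4, 23.0 and 27.8 in shARID1A/B.2.3 and 32.1, 30.2 and 32.9 in shARID1A/B.4.2, at 0.36 (SE 0.09 and edgeR FDR 8.8e-04). The groups overlapped at both.

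SMAD4 had 20.1, 21.7 and 19.3 CPM in Control, 23.4, 23.1 and 24.0 in shARID1A/B.2.3 and 26.6, 24.7 and 24.9 in shARID1A/B.4.2, at 0.26 (SE 0.08 and edgeR FDR 0.00911). SMAD6 had 29.8, 23.3 and 30.5 CPM in Control, 37.7, 31.5 and 36.9 in shARID1A/B.2.3 and 33.6, 34.0 and 37.5 in shARID1A/B.4.2, at 0.34 (SE 0.09 and edgeR FDR 0.00172). SKIL had 64.9, 64.4 and 59.8 CPM in Control, 72.1, 84.4 and 71.6 in shARID1A/B.2.3 and 76.7, 74.5 and 77.4 in shARID1A/B.4.2, at 0.27 (SE 0.07 and edgeR FDR 0.00273). On the promoter scaling these 3 and those of BMP3, ACVR2A, BMPR1A, ACVR1B and INHBB had log2 changes of 0.02 to 0.27 and were not called, and their place in the shift of reads towards promoter sites was not tested beyond this. The 20 start sites without a call had log2 changes of -0.33 (TGFBR2) to 0.72 (SMAD3, at under 1 CPM), among them BMP4, BMP7, NOG, FST, TGFBR3, BMPR1B, BMPR2 and SMAD5. The CHRD and BMP7 start sites were annotated as promoters of the neighbouring genes THPO and LOC101927820.

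Counts were also summed over all sites of a gene, which weighs its most open sites most. Of 40 member genes, 9 were lower (22.5%) and 4 higher (10%) under combined silencing, against 20.9% lower and 15.9% higher of the 26743 genes tested, and the median log2 change was -0.02 for members and 0.02 for all genes. On the promoter scaling 23 of the 40 were lower, a share above the 35.5% of all genes, and 1 was higher, a share below the 3.77% of all genes. Single member sites closed less often than all sites on that scaling (14.6% against 15.9%). Sums were not matched for the number of sites, which was 1166 at 40 member genes and 367900 at 26788 genes in the whole series. SMAD3 was lowest, at -0.70 (SE 0.08), with 50.2, 37.4 and 51.6 CPM in Control, 29.1, 24.8 and 27.6 in shARID1A/B.2.3 and 30.2, 30.3 and 29.3 in shARID1A/B.4.2. BMP7 followed at -0.66 (SE 0.07), with 33.3, 26.3 and 31.9 CPM in Control, 18.5, 16.3 and 19.6 in shARID1A/B.2.3 and 20.6, 22.4 and 19.4 in shARID1A/B.4.2. Control replicate 2 was the lowest Control library for both, yet it was above every combination library. TGFBR2 was at -0.65 (SE 0.07), with 23.9, 24.9 and 22.5 CPM in Control, 13.8, 15.2 and 15.0 in shARID1A/B.2.3 and 15.7, 15.6 and 15.4 in shARID1A/B.4.2. TGFBR3 was at -0.57 (SE 0.04), with 59.3, 59.8 and 56.5 CPM in Control, 37.2, 40.3 and 35.3 in shARID1A/B.2.3 and 41.1, 41.3 and 41.6 in shARID1A/B.4.2. Neither gene overlapped between Control and combinations. BMPR1B was at -0.45 (SE 0.04) and TGFB2 at -0.41 (SE 0.07). The only rise past 0.3 was that of TGFBR1, at 0.32 (SE 0.04), with 57.4, 59.4 and 57.5 CPM in Control, 70.0, 74.0 and 67.4 in shARID1A/B.2.3 and 74.8, 74.9 and 73.2 in shARID1A/B.4.2.

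These 7 genes were called under all 14 other settings tried for the sums, with edgeR FDR of at most 0.0063. The value moved by over 1.5 times for TGFBR3, to -0.35 when only sites within 100000 bases of the TSS were summed, and for TGFBR1, to 0.14 on the promoter scaling. The 6 smaller calls were not all kept. FST (-0.24, SE 0.06), BMP5 (-0.22, SE 0.06) and BMP4 (-0.17, SE 0.04) lost theirs without Control replicate 2 (edgeR FDR 0.158, 0.124 and 0.026), FST and BMP5 also without several single combination libraries (0.011 to 0.017), and BMP4 also when only sites within 100000 bases of the TSS were summed (0.277). SMAD2 (0.22, SE 0.05), SMAD4 (0.20, SE 0.06) and INHBA (0.27, SE 0.08) were not called on the promoter scaling (log2 changes 0.04, 0.02 and 0.10), and SMAD4 and INHBA were not called either without Control replicate 1 (edgeR FDR 0.067 and 0.091) or Control replicate 3 (0.046 and 0.053), and each lost the call in further settings. Control replicate 2 had the highest sum of the Control libraries for TGFB2, FST, BMP5, BMP4, SMAD4 and INHBA, and its part in these results was measured only by leaving it out.

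**Figure D4:**
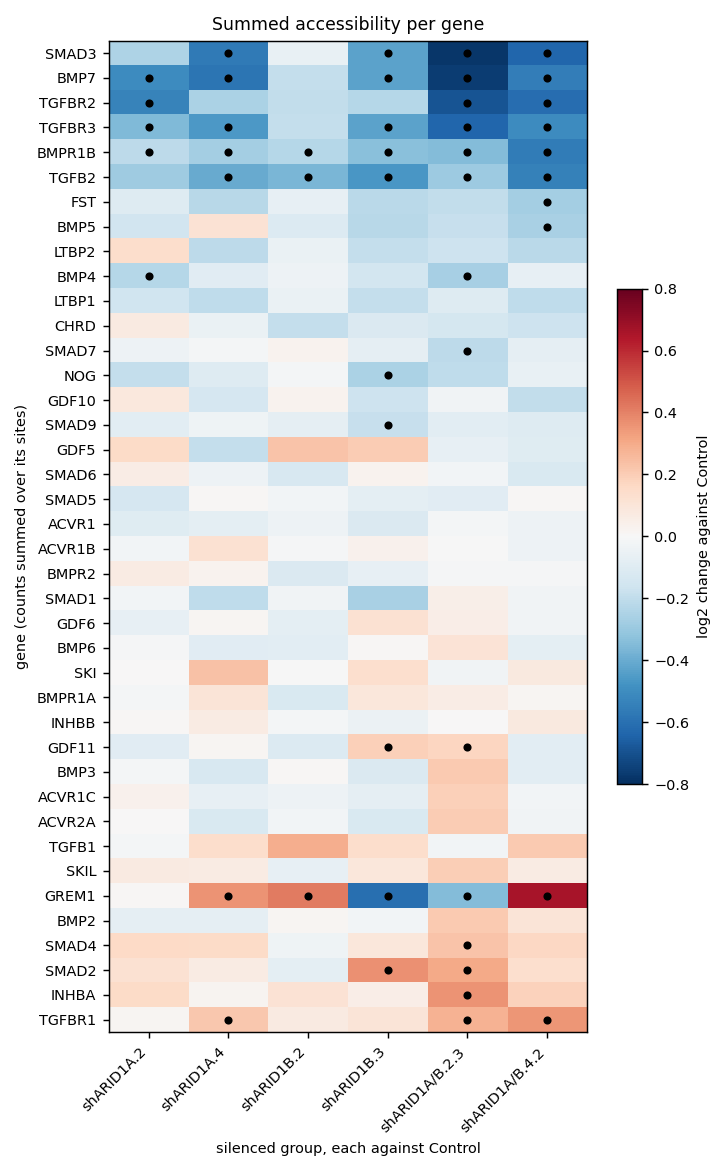
Log2 change of accessibility summed over all sites of each of the 40 genes (rows, ordered by the change under combined silencing) in each silenced group against Control (columns), with a colour scale from -0.8 to 0.8 and black dots at edgeR FDR under 0.01. SMAD3, BMP7, TGFBR2, TGFBR3, BMPR1B and TGFB2 are at the low end in both combinations, and GREM1 is low with shARID1B.3 and shARID1A/B.2.3 and high with shARID1A.4, shARID1B.2 and shARID1A/B.4.2.

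Silencing of a single gene gave fewer calls at member sites. ARID1A silencing changed 59 (44 lower and 15 higher, or 5.22%, against 7.05% of all sites) and ARID1B silencing 42 (35 lower and 7 higher, or 3.72%, against 4.93%). By shRNA, shARID1A.2 changed 40 (3.54%, against 5.38%), shARID1A.4 changed 60 (5.31%, against 6.45%), shARID1B.2 changed 28 (2.48%, against 3.18%) and shARID1B.3 changed 71 (6.28%, against 8%). The combination shARID1A/B.2.3 changed 129 (11.4%, against 13.2%) and shARID1A/B.4.2 changed 108 (9.56%, against 11.3%). These counts share the Control libraries, and the share called was below that of all sites in each of them. The shARID1B.2 count was the least stable, at 9 to 20 when a library was left out. At the 100 sites closed by combined silencing, the median log2 change was -0.51 with ARID1A and -0.41 with ARID1B silencing. These sites were chosen against the same Control libraries, so that both medians depend in part on that choice. The medians over all closed sites were not computed. TGFB2 had 5 of its sites lowered by ARID1A and 6 by ARID1B silencing, TGFBR3 had 5 and 4, and BMPR1B had 3 and 4, while for SMAD3 the numbers were 2 and 1.

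Combined silencing was compared with the mean of the 4 single-shRNA groups, with no Control library in the contrast. It lowered 71 member sites (6.28%, against 6.85% of all sites) and raised 12 (1.06%, against 0.969%). BMPR1B had 9 such lower sites, TGFBR3 had 7 and SMAD7 had 6. The smallest p-values were at the TGFBR3 site in intron 6 (-0.81, SE 0.10 and edgeR FDR 1.9e-10), the distal BMP4 site (-0.87, SE 0.11 and edgeR FDR 4.6e-10) and the SMAD7 site at chr18:48901533-48902791 (-0.70, SE 0.10 and edgeR FDR 2.0e-08), and all 3 calls were kept in the 23 other settings that could be run. At the TGFBR3 site mean CPM was 3.84 and 2.52 with ARID1A shRNAs and 6.89 and 5.30 with ARID1B shRNAs. The combinations had 2.09 and 2.93 there. At the BMP4 site the means were 2.07 and 2.53, 5.69 and 3.25, and 1.57 and 1.90 in that order. The combinations were thus nearer to the ARID1A groups at both sites. Combined silencing against ARID1A silencing alone was not tested. The mean CPM at the SMAD7 site was 5.50 in Control, 4.25, 4.84, 4.44 and 4.47 with single shRNAs, and 2.43 and 3.25 in the combinations.

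Between the genes silenced, 33 member sites differed (24 lower and 9 higher with ARID1A shRNAs, or 2.92%, against 4.74% of all sites). The BMP7 site chr20:57243738-57245244 had 4.21, 3.13 and 3.95 CPM with shARID1A.2, 2.11, 2.17 and 2.19 with shARID1A.4, 5.45, 6.55 and 6.26 with shARID1B.2 and 5.89, 6.17 and 6.60 with shARID1B.3, a log2 difference of -1.11 (SE 0.11 and edgeR FDR 1.1e-13). ARID1A-silenced libraries of both shRNAs were below all ARID1B-silenced libraries. The same held for the TGFBR3 site in intron 6 (-0.94, SE 0.10 and edgeR FDR 1.4e-11). SMAD9 at chr13:36904074-36905215, in intron 1 of 4, had 3.22, 3.37 and 3.77 CPM in Control, 2.22, 2.68 and 1.93 with shARID1A.2, 2.70, 2.22 and 2.76 with shARID1A.4, 5.02, 5.93 and 4.74 with shARID1B.2 and 4.55, 4.19 and 3.99 with shARID1B.3, a log2 difference of -0.96 (SE 0.11 and edgeR FDR 1.1e-10). Against Control, ARID1A silencing lowered it (-0.52, SE 0.14 and edgeR FDR 0.00764), while ARID1B silencing gave 0.44 (SE 0.13 and edgeR FDR 0.0171). All 3 differences were called in the 17 other settings.

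The combinations differed from each other at 40 member sites (24 lower and 16 higher with shARID1A/B.2.3, or 3.54%, against 5.22% of all sites), and 6 of these were sites of BMP5. The smallest p-values were at both sites named for GREM1, an extracellular BMP antagonist, which lay in intron 4 of 5 of the neighbouring gene SCG5, and at 1 site of BMP5. At chr15:32684878-32685772 the shARID1A/B.2.3 libraries had 2.99, 2.72 and 2.15 CPM and the shARID1A/B.4.2 libraries 6.09, 6.95 and 6.45, around Control libraries of 4.33, 4.48 and 4.57. The combinations lay on opposite sides of Control, at a log2 difference of -1.29 (SE 0.14 and edgeR FDR 1.2e-11). With single shRNAs the means were 4.58 (shARID1A.2), 5.11 (shARID1A.4), 5.81 (shARID1B.2) and 2.16 CPM (shARID1B.3). The neighbouring site chr15:32687502-32688609 had 7.07, 5.63 and 5.73 CPM in Control, 6.34, 4.62 and 6.07 in shARID1A/B.2.3 and 12.1, 10.8 and 12.6 in shARID1A/B.4.2, a log2 difference of -1.08 (SE 0.12 and edgeR FDR 5.1e-11). It was the opened site of GREM1 under combined silencing (0.41, SE 0.11 and edgeR FDR 0.00419), and that call came from shARID1A/B.4.2 (0.95) and not from shARID1A/B.2.3 (-0.13, edgeR FDR 0.551). At the BMP5 site chr6:55918445-55920339, 43802 bases upstream of the TSS, Control had 4.04, 4.07 and 3.29 CPM, shARID1A/B.2.3 had 2.76, 2.39 and 2.90 and shARID1A/B.4.2 had 5.96, 5.84 and 5.80, a log2 difference of -1.15 (SE 0.14 and edgeR FDR 4.2e-10). The single shRNAs gave 2.87 (shARID1A.2), 6.64 (shARID1A.4), 5.79 (shARID1B.2) and 2.78 CPM (shARID1B.3) there. At all 3 sites the means of shARID1A.4 and shARID1B.2, whose shRNAs make up shARID1A/B.4.2, were above those of shARID1A.2 and shARID1B.3, whose shRNAs make up shARID1A/B.2.3. Summed over both sites, GREM1 had 9.31, 8.23 and 8.33 CPM in shARID1A/B.2.3 and 17.2, 17.1 and 17.9 in shARID1A/B.4.2, with 11.5, 11.1 and 10.5 in Control. A difference between shRNAs against the same gene was not tested, and effects of a hairpin on other targets cannot be told apart here from those on its intended gene.

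The departure of combined silencing from the sum of the single changes was called at 2 member sites, both lower than the sum (0.177%, against 0.516% of all sites). At the SKI site chr1:2255311-2256656 the mean was 5.80 CPM in Control, 9.0, 10.05, 7.44 and 8.92 with shARID1A.2, shARID1A.4, shARID1B.2 and shARID1B.3, and 7.29 and 7.31 in shARID1A/B.2.3 and shARID1A/B.4.2. ARID1A (0.73) and ARID1B silencing (0.51) each raised the site, combined silencing gave 0.33 (edgeR FDR 0.0549), and the departure was -0.90 (SE 0.16 and edgeR FDR 1.9e-04). The call was lost in DESeq2's Wald test (adjusted p 0.011). At the BMPR1B site chr4:95123454-95124194, over exon 7 of 13, the departure was -1.10 (SE 0.25 and edgeR FDR 0.0069), and the call was lost in 14 of 26 other settings, 12 of them with a single library left out (edgeR FDR of at most 0.031).

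**Figure D5:**
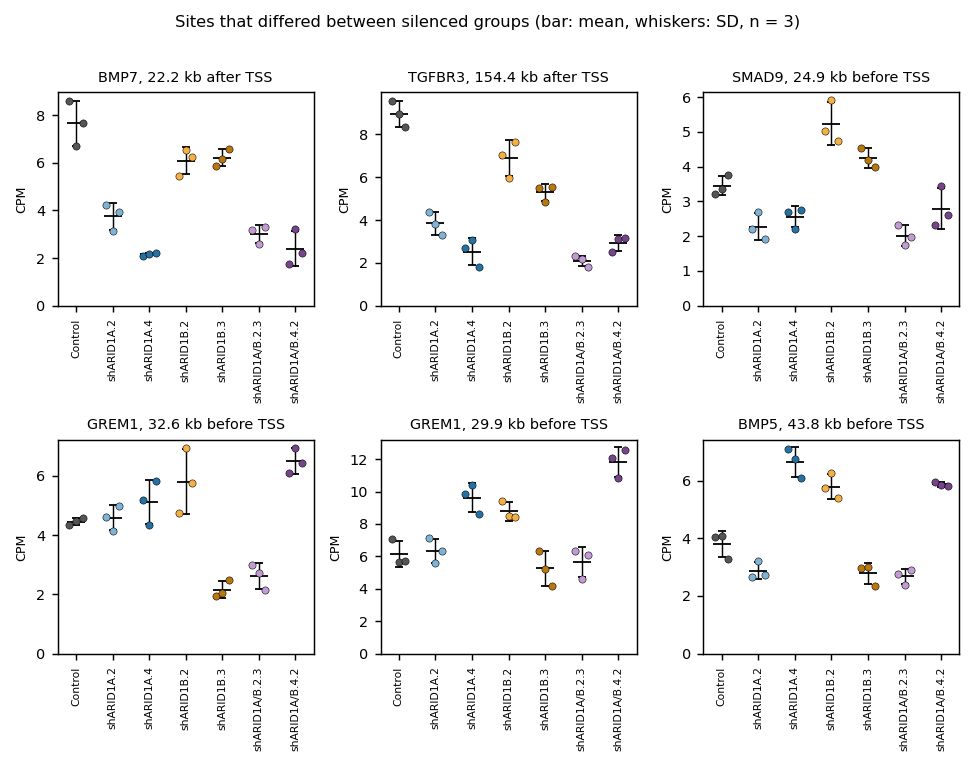
CPM in each of the 21 libraries at 6 member sites that differed between silenced groups, with the mean and SD of 3 libraries per group and axes from 0. BMP7, TGFBR3 and SMAD9 (upper panels) separate ARID1A from ARID1B shRNAs, and GREM1 and BMP5 (lower panels) separate shARID1A/B.2.3 from shARID1A/B.4.2.

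A list of 52 further genes of the pathway, among them targets, regulators and other ligands, had 723 tested sites at 50 genes, and 63 closed (8.71%, against 10.3% of all sites) and 28 opened (3.87%, against 3.43%), at 26 and 19 genes. On summed counts, 9 of the 50 were lower and 10 higher, against 20.9% and 15.9% of all genes. Among the BMP target genes of the ID family, which encode inhibitors of bHLH factors, the start sites of ID1 (0.51, SE 0.07, edgeR FDR 1.2e-08) and ID4 (0.28, SE 0.07, edgeR FDR 0.00169) opened, while that of ID3 was not called (0.20, SE 0.10, edgeR FDR 0.195). The ID1 start site had 44.7, 40.6 and 42.9 CPM in Control, 57.6, 55.8 and 57.7 in shARID1A/B.2.3 and 66.6, 64.0 and 62.8 in shARID1A/B.4.2, without overlap. BAMBI, a decoy receptor, opened at its start site as well, at 0.53 (SE 0.08, edgeR FDR 2.0e-08), as did SMURF1, a ubiquitin ligase for SMADs, at 0.44 (SE 0.08, edgeR FDR 1.8e-05). TWSG1, a BMP modulator (0.48, SE 0.09, edgeR FDR 2.2e-05), RGMB, a BMP co-receptor (0.34, SE 0.07, edgeR FDR 1.8e-04), GDF1, a ligand (0.42, SE 0.11, edgeR FDR 0.00184), and ZFYVE16, an endosomal SMAD anchor (0.26, SE 0.08, edgeR FDR 0.00754), completed the 8 opened start sites of 32 (25%, against 32.1% of all start sites). On the promoter scaling those of ID1 (0.27) and BAMBI (0.30) stayed opened, and 5 of the 32 were closed. The start site of LEFTY2, an inhibitor of nodal signals, closed, at -0.47 (SE 0.12, edgeR FDR 0.00234). TGFBI, a matrix protein induced by TGF-beta, had 7 closed of 19 sites, and NEDD4L, a SMAD ubiquitin ligase, had 7 of 20.

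In the middle 300 bases of sites, AGATAA was found in 27 of the 100 closed member sites and 2 of the 30 opened ones, against 17% of all tested sites, 24.7% of all closed and 7.94% of all opened sites. The E-box was in 32 closed and 4 opened member sites (23% of tested, 33% of closed and 13% of opened sites), and CAGACA was in 32 and 3 (23.4%, 26.9% and 14.7%). AP-1 matches lay in 12 closed and 4 opened member sites (10.9%, 14.3% and 5.56%). GGCGCC was in 7 opened and 4 closed member sites, against 4.47% of tested, 23.5% of opened and 1.86% of closed sites. The palindrome GTCTAGAC was in 1 closed and 2 opened member sites (0.202% of tested sites). Base composition was not matched between these classes of sites.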

How the data were processed

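ATAC-seq libraries of SK-N-BE(2) cells, 21 in 7 groups of 3, had been counted by the authors over a shared set of sites, and the deposited read counts per site, in the GRCh38 build per the labels, were used as they stood. Which aligner and peak caller were run was not given in the sources used here. Columns of normalized counts, and of log2 ratios and p-values from the authors' DESeq2 comparisons, stood beside the counts and were left unused. Nearest genes, classes and distances came from the deposited site annotation.

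Low counts were removed with filterByExpr at a minimum count of 10, which dropped 10871 sites, and libraries were scaled by TMM. All 7 groups were fitted together with edgeR 4.0.16 in R 4.3.3 (quasi-likelihood test, Benjamini-Hochberg adjustment over all tested sites, threshold 0.01), without a replicate block, and log2 changes are group contrasts of that model with their standard errors. Counts summed per gene were fitted in the same way. DESeq2 1.42.0, its size factors, TMM on promoter sites, no filter, sites within 100000 bases, a replicate block and leaving out each library in turn were the alternatives. The code was tested on simulated counts of 57101 sites, a few of them changed in the combinations. At log2 changes of -0.5 and 0.5, 8 and 9 of 50 changed sites were recovered. At -1 and 1 the numbers were 32 and 47 of 50. Changes near 0.5 were thus often missed in the simulation. A far smaller share of sites was changed there than was called in the data, which makes the adjusted threshold stricter. These numbers therefore do not give the recovery in the data. Libraries held 16140029 to 44472230 reads in sites, and the common biological coefficient of variation was 0.0817 for sites.

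The members and gene lists were chosen with earlier results of these data known. Named sites were each member's start site, the 8 largest falls and 8 largest rises called with each combination, at 1 CPM or more, without overlap with Control and with at most 2 sites per gene, the 3 sites with the smallest p in each comparison between silenced groups, and genes called on summed counts. Other sites are given as counts and ranges, apart from those of FST, NOG, TGFBR2, SMAD3 and BMP2 given with values, which were chosen after their values were seen. Each of the 21 pairs of libraries of a group differed beyond sampling noise (chi-square per degree of freedom 1.08 to 2.53). Part of the marker list is not reported here. Libraries with the same replicate number deviated together between Control and shARID1A/B.2.3 (r 0.147, 0.418 and 0.150, all above the limit of 0.1), and in no other pair of groups did all 3 pass it (r -0.24 to 0.42, above 0.1 in 10 of 63 pairs). The labels gave the numbers no meaning.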

Additional observations from a re-analysis of the deposited data

Results flagged for a closer look

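ARID1A and ARID1B shRNAs, compared directly, differed at 5 of the sites named above. The log2 difference (ARID1A minus ARID1B, edgeR FDR) was -1.11 (1.1e-13) at the BMP7 site in intron 1, -0.94 (1.4e-11) at the TGFBR3 site in intron 6, -0.96 (1.1e-10) at the SMAD9 site in intron 1 and -0.90 (1.4e-09) at the distal BMP4 site. At these 4 sites all 6 ARID1A-silenced libraries were below all 6 ARID1B-silenced libraries. The GREM1 site at chr15:32684878 differed in the other direction, by 0.46 (0.0011), with overlap, since shARID1B.3 libraries were low and shARID1B.2 libraries were high.

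The combinations, compared directly, differed at both GREM1 sites, by -1.29 (1.2e-11) at chr15:32684878 and -1.08 (5.1e-11) at chr15:32687502 (shARID1A/B.2.3 minus shARID1A/B.4.2), and at the BMP5 site at chr6:55918445, by -1.15 (4.2e-10). The part of the individual hairpins in these differences was not tested.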

How the results depend on the processing

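All 8 named falls kept their calls under all alternatives run, as did 6 of the 8 named rises, and the rises at BMP2 (0.45, edgeR FDR 0.056) and BMP3 (0.27, edgeR FDR 0.032) lost theirs on the promoter scaling, with none reversed. TMM on promoter sites gave 165 closed and 7 opened member sites, 95 called with ARID1A silencing, 65 with shARID1A.2, 94 with shARID1A.4 and 163 with shARID1A/B.4.2, 1 departure and 24 genes on sums (23 lower, 1 higher). This scaling sets promoter sites as unchanged on average by its construction. DESeq2's Wald test gave 12 sites for shARID1B.2 and 0 departures, and sites within 100000 bases alone gave 46 for shARID1B.3 and 1 departure, with fewer sites counted. Leaving out single libraries gave 17 to 39 opened sites (30 with all libraries, the lowest without Control replicate 3), 79 to 103 closed, 26 to 42 with ARID1B silencing (the lowest without Control replicate 1), 26 to 33 with shARID1A.2 (40), 36 to 53 with shARID1A.4 (60), 9 to 20 with shARID1B.2 (28), 23 to 38 between the combinations (40) and 1 to 2 departures. With a replicate block 104 sites closed, 33 opened, 133 were called with shARID1A/B.2.3 (129 without it) and 13 genes were called on sums, and no count moved by over 1.5 times. At sites of 1 CPM or less the depth limits what could be called.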
